A study of Mus musculus with 14 samples.

Results

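Spp1, the gene of the secreted phosphoprotein osteopontin, was described together with 8 genes of receptors that bind it. These were Cd44 and the integrin subunit genes Itgav, Itgb1, Itgb3, Itgb5, Itga4, Itga9 and Itgax. They were chosen by gene symbol, 9 of the 55335 genes in the count matrices, and all 9 had UMIs (unique molecular identifiers, each standing for 1 captured RNA molecule) in the kept cells. Whole mouse spinal cords from animals aged P115-120 days, called mid-disease stage by the submitters, had been dissociated with enzymes, freed of myelin with beads and run as 14 libraries of 10x Genomics single-cell 3' RNA sequencing. The SOD1G93A group (3 libraries) carried a mutant human SOD1 transgene on strain B6SJL-Tg(SOD1*G93A)1Gur/J, a model of amyotrophic lateral sclerosis. The Clec7a-KO group (4 libraries) was of strain B6.129S6-Clec7atm1Gdb/J, which lacks the myeloid lectin receptor Clec7a. SOD1G93A/Clec7a-KO (4 libraries) combined both, and nTg (3 libraries) was labelled only as nTg. The series text calls the control group wild type, and the labels give no strain beyond the genotype for it or for the double mutant, so a difference of strain background and the genotype cannot be told apart. No label says which libraries came from separate animals. The study asked how Clec7a bears on microglial responses in this model.

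Osteopontin is secreted into the matrix and binds integrins through an RGD motif, used by pairs of the alpha V subunit (Itgav) with beta 1, beta 3 or beta 5 (Itgb1, Itgb3, Itgb5). A neighbouring stretch, opened when thrombin or matrix metalloproteinases cut the protein, is bound by the beta 1 pairs with alpha 4 or alpha 9 (Itga4, Itga9), and Cd44 and the alpha X chain (Itgax, CD11c) are further reported receptors. In the nervous system Spp1 and Itgax are both known as genes of microglia that have left the homeostatic state.

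The 250 bases before the annotated starts of Spp1 and Itgax are shown because these were the ligand and the receptor whose microglial levels differed most with the transgene below. Both stand on the plus strand of GRCm38.p6 in the RefSeq table, at chr5:104434861-104435110 and chr7:128129300-128129549, written 5′ to 3′ with motif matches in capitals.
Spp1: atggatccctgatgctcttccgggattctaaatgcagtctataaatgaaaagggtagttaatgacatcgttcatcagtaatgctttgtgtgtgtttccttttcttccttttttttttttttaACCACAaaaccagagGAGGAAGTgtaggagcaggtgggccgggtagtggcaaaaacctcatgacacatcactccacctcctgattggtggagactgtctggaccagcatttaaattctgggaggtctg
Itgax: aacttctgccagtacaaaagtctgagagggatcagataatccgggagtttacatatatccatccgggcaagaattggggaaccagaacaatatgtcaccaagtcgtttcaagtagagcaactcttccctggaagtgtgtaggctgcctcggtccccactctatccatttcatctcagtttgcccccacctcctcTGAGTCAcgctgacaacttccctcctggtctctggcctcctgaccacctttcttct
In the Spp1 sequence the capitals mark a RUNX motif (ACCACA, first base at -128 from the start) and an ETS motif of PU.1 type (GAGGAAGT, at -113). In the Itgax sequence they mark an AP-1 motif (TGANTCA, at -56). Of the 32851 starts in the table, the 250 bases before the start, searched on both strands, held the RUNX motif in 14.05%, the ETS motif in 2.44%, the AP-1 motif in 6.75% and a MiT/TFE E-box (TCACGTG), also searched, in 3.13%. The table also goes 50 bases past each start, where Itgax has a RUNX match on the minus strand (TGTGGT, at 13). It holds 2 starts of Spp1, of which the one further upstream is shown, and the other has no match to these motifs. No binding was measured here, so a match is only a match of letters.

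Of the 89756 kept cells, 52387 were microglia, 11307 endothelial, 7635 ependymal, 5808 astrocytes, 3908 oligodendrocyte precursors, 1740 mural cells, 1278 neurons, 782 T and NK cells, 532 border-associated macrophages and 57 B cells, and 4322 were left unnamed. Microglia had all 12 of their markers in every library. Library totals ran from 28819852 to 141204910 UMIs, with 2558 to 10264 kept cells and medians of 5369 to 17571 UMIs a cell. Clec7a in microglia was at 28.8 to 82.2 CPM (counts per 1000000 UMIs) in nTg and 889 to 1042 in SOD1G93A, against 0.748 to 2.48 in Clec7a-KO and 1.95 to 3.81 in SOD1G93A/Clec7a-KO, so no library went against its Clec7a label. These levels do not check the SOD1 transgene label of the groups without Clec7a. Xist above 9 on the log2 CPM scale marked 4 libraries as holding female cells (2 nTg, 1 Clec7a-KO, 0 SOD1G93A and 1 SOD1G93A/Clec7a-KO). At most 0.474% of the barcodes of a smaller library recurred in another.

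Microglia held most of the Spp1 RNA counted in every library other than nTg replicate 2, and nearly all of it in cords with the transgene. Microglia carried 99.5%, 98.5% and 99.2% of the Spp1 UMIs of the 3 SOD1G93A libraries, and 98.5%, 97.4%, 99.4% and 98.9% of those of the 4 SOD1G93A/Clec7a-KO libraries. In Clec7a-KO the share was 85.7%, 85.7%, 86.3% and 94.6%, and in nTg it was 89.4%, 36.8% and 86.8%. The groups with the transgene did not overlap with those without it. Microglia made up 68.2% ± 2.72 (SD, n = 3) of the kept cells in SOD1G93A and 72.9% ± 5.62 (n = 4) in SOD1G93A/Clec7a-KO, but only 35.8% ± 6.03 (n = 3) in nTg and 44.1% ± 2.64 (n = 4) in Clec7a-KO. A single nTg library, replicate 2, set the low nTg mean of 71.0% ± 29.6 (n = 3), and without it the mean was 88.1%. These shares depend on how many cells of each class survived dissociation and on the class borders, and classes were cut from the same cells, so no test was made between classes.

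In cords without the transgene the rest of the Spp1 lay mainly outside the named classes. The unnamed cells held 25.4% ± 27.6 (SD, n = 3) of the Spp1 UMIs in nTg and 9.69% ± 3.75 (n = 4) in Clec7a-KO. The nTg libraries stood at 8.21%, 57.2% and 10.7%, so replicate 2 set the nTg mean. Most of that came from a cluster of 145 cells led by Apod, Dcn, Ptn, Itih5 and Cldn5, whose fibroblast and endothelial markers stood at nearly the same height, so it was given no name. This cluster held 94.4% of the unnamed Spp1 UMIs in nTg and 88.9% in Clec7a-KO, and a Spp1 UMI was found in 86.8% of its 38 nTg cells and 80.0% of its 35 Clec7a-KO cells. Summed over a group's libraries, its Spp1 level was 1490.5 CPM in nTg, 2540.0 in Clec7a-KO, 1939 in SOD1G93A and 3099 in SOD1G93A/Clec7a-KO. It contained 34 UMIs of C1qa, C1qb and C1qc in nTg against 1019 of Spp1, and 28 against 846 in Clec7a-KO. With the transgene these were 1545 against 947 in SOD1G93A and 1265 against 530 in SOD1G93A/Clec7a-KO. The part of microglial RNA in its Spp1 level was not tested. In nTg, the median microglial level of Spp1 was below the level of this small non-microglial cluster, whereas in SOD1G93A the order was the opposite.

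Within microglia, Spp1 (chr5:104435118-104441050, plus strand, protein coding) was at most 286 CPM in any library without the transgene and at least 4670.4 CPM in any with it. Levels are CPM of the UMIs of the class in a library, after trimmed-mean (TMM) scaling. Spp1 stood at 99.5, 18.8 and 109.7 CPM in nTg, 67.1, 91.1, 52.3 and 286 in Clec7a-KO, 5892, 7397 and 6139.7 in SOD1G93A and 7178, 4670.4, 9661 and 7276 in SOD1G93A/Clec7a-KO. The lowest library with the transgene lay far above the highest without it, the fourth Clec7a-KO library. SOD1G93A against nTg in microglia was the contrast by which these genes were proposed. Its fitted log2 difference of 6.41 is therefore a description with no test, in a contrast where 33.9% of all genes were called. SOD1G93A/Clec7a-KO against Clec7a-KO, which shares no library with that contrast, gave a log2 difference of 5.86 (SE 0.65, edgeR adjusted p = 8.2e-06), or 58.1-fold with a 95% interval of 22.1 to 152. All 4 libraries against all 4 showed this direction. Without Clec7a-KO replicate 4 the log2 difference was 6.68, still called. The test is not fully independent, since all 14 libraries shared a fit and the genes were chosen with earlier results of these data known.

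**Figure D1:**
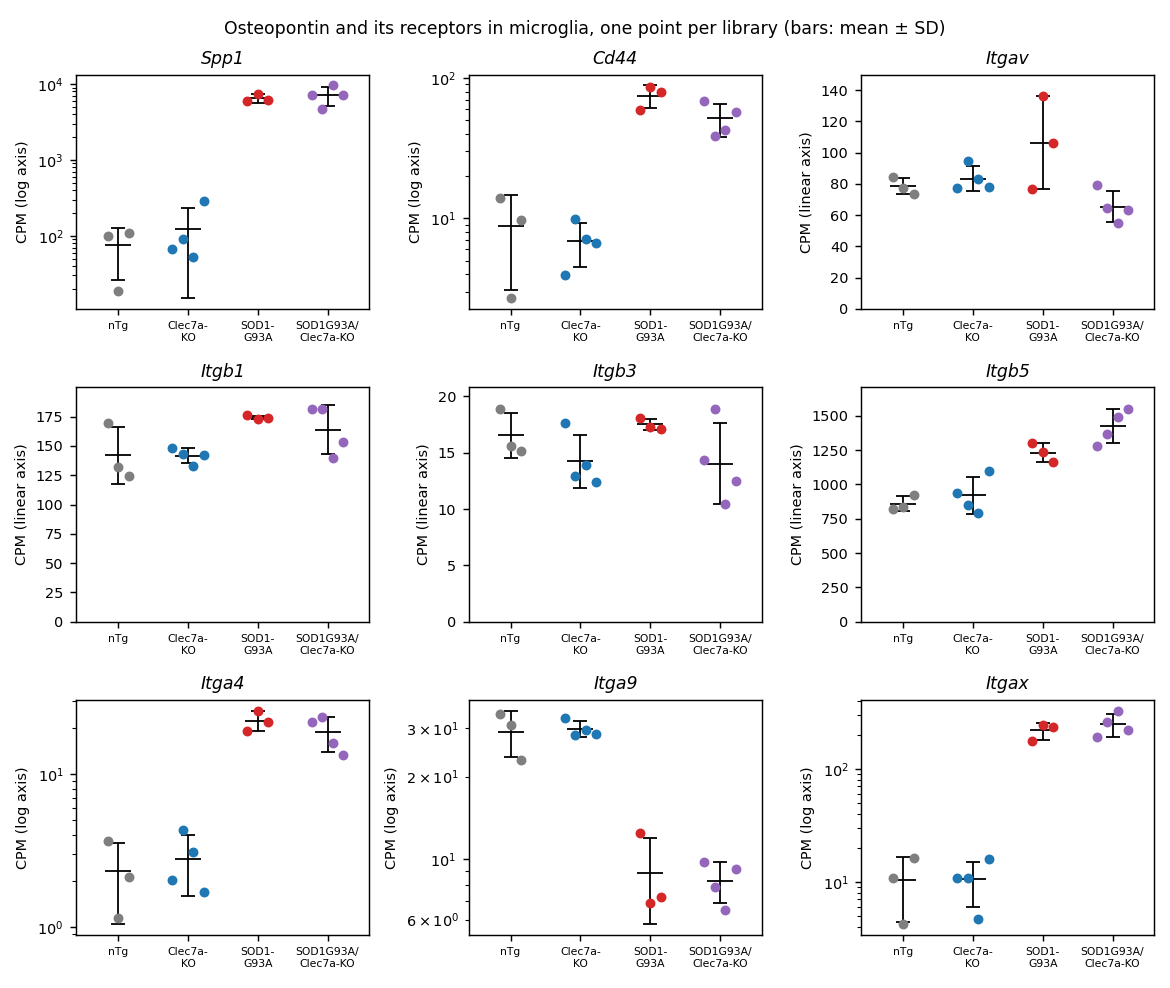
Level of each of the 9 genes in microglia, in CPM, with 1 point per library for the 4 groups and bars for the mean ± SD (n = 3 or 4 libraries). Spp1, Cd44, Itga4, Itga9 and Itgax are on log axes and the other 4 on linear axes from 0. Spp1, Cd44, Itga4, Itgax and, by little, Itgb5 lie higher and Itga9 lower in all 7 libraries with the transgene, while the groups overlap for Itgav, Itgb1 and Itgb3. The share of all genes without overlap was not counted. In SOD1G93A/Clec7a-KO against Clec7a-KO, 46.2% of all genes tested in microglia were called.

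The Spp1 RNA was unevenly spread over the microglia of transgenic cords. The 10% of microglia with the most Spp1 UMIs held 67.1% to 74.5% of the class's Spp1 in the 3 SOD1G93A libraries and 60.6% to 79.5% in the 4 SOD1G93A/Clec7a-KO libraries. After every cell was thinned to 2000 UMIs, a Spp1 UMI was found in 63.0% ± 7.95 (SD, n = 3) of SOD1G93A microglia and 66.0% ± 6.88 (n = 4) of SOD1G93A/Clec7a-KO microglia. The share was 1.64% ± 0.518 (n = 3) in nTg and 1.99% ± 0.595 (n = 4) in Clec7a-KO. Unthinned shares ran from 72.9% to 90.8%, 80.3% to 93.5%, 1.94% to 5.07% and 2.41% to 5.27% in the same order. Endothelial cells, taken for comparison, were thinned in the same way and gave 13.4% ± 1.37, 18.6% ± 4.28, 0.180% ± 0.111 and 0.225% ± 0.0230 (n = 3, 4, 3 and 4). Median depths before thinning were 5292 to 21828 UMIs in microglia and 3875 to 10226 in endothelial cells, and 344 to 538 microglia and 152 to 270 endothelial cells a group were too shallow and were left out.

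Spp1 levels differed between the microglial clusters. In the microglial cluster led by P2ry12, Tmem119 and Selplg, Spp1 ran from 6.93 to 8.76 CPM in nTg, 2.52 to 12.5 in Clec7a-KO, 85.7 to 169 in SOD1G93A and 134 to 241 in SOD1G93A/Clec7a-KO. That cluster held a median of 19.2% (18.8% to 77.03%) of the microglia of an nTg library, 79.8% (19.1% to 84.9%) in Clec7a-KO, 1.82% in SOD1G93A and 2.38% in SOD1G93A/Clec7a-KO. A cluster led by P2ry12, Cx3cr1 and Tmem119 held 64.5% at the median in nTg (0.993% to 65.4%), and 63.9% in 1 Clec7a-KO library, where the median was 0.482%. It reached at most 2.22% in SOD1G93A/Clec7a-KO. Xist was above 9 on the log2 CPM scale in 2 nTg libraries and 1 Clec7a-KO library. Whether the shares of these 2 clusters go with Xist or with Clec7a was not tested. In the cluster led by Spp1, Gpnmb and Lgals3 it ran from 14112 to 17094 CPM in SOD1G93A and from 9270.0 to 21119 in SOD1G93A/Clec7a-KO, where that cluster was 4.31% and 9.39% of microglia at the median. Spp1 and Itga9 were among the variable genes from which the clusters were made, so these differences between clusters are a description.

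Across the 9 genes in microglia, 6 were called in SOD1G93A/Clec7a-KO against Clec7a-KO, where 46.2% of the 16787 genes tested were called. Calls are two-sided edgeR quasi-likelihood tests at a Benjamini-Hochberg adjusted p under 0.05 over all genes tested. Spp1, Cd44, Itga4, Itgax and Itgb5 rose and Itga9 fell, while Itgav, Itgb1 and Itgb3 were not called. The share of all genes whose libraries with and without the transgene do not overlap was not counted, so a lack of overlap below only describes the gene.

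Itgax (chr7:128129547-128150657, plus strand) encodes the alpha X chain, which pairs with the beta 2 chain on myeloid cells. Its microglial level was 10.8, 4.24 and 16.3 CPM in nTg, 10.7, 10.8, 4.66 and 15.8 in Clec7a-KO, 176, 245 and 236 in SOD1G93A and 193, 258, 325 and 218 in SOD1G93A/Clec7a-KO. No library with the transgene came near a library without it. The log2 fold change without Clec7a was 4.57 (SE 0.41, edgeR adjusted p = 1.1e-06), and the described difference with Clec7a was 4.40. Thinned to 2000 UMIs, 25.2% ± 3.44 (SD, n = 3) of SOD1G93A microglia and 26.3% ± 5.30 (n = 4) of SOD1G93A/Clec7a-KO microglia had an Itgax UMI, against 1.46% ± 0.802 (n = 3) in nTg and 1.23% ± 0.325 (n = 4) in Clec7a-KO. Its partner Itgb2 rose too, by 1.01 on the log2 scale (SE 0.25, edgeR adjusted p = 0.0044).

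Cd44 (chr2:102811141-102901665, minus strand) encodes a hyaluronan receptor of many migrating cells. In microglia it stood at 14.1, 2.70 and 9.74 CPM in nTg, 3.97, 9.81, 7.14 and 6.67 in Clec7a-KO, 59.2, 86.0 and 79.7 in SOD1G93A and 68.0, 38.7, 42.4 and 57.7 in SOD1G93A/Clec7a-KO. The groups with and without the transgene did not overlap. The log2 fold change without Clec7a was 2.91 (SE 0.40, edgeR adjusted p = 4.7e-05), beside a described difference of 3.07 with Clec7a. A Cd44 UMI was found in 10.5% of thinned SOD1G93A microglia and 7.37% of SOD1G93A/Clec7a-KO microglia, and in 1.70% of nTg and 1.24% of Clec7a-KO microglia (means over 3, 4, 3 and 4 libraries in this order).

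Among the alpha subunits that pair with beta 1 to bind cut osteopontin, the 2 genes moved in opposite directions. Itga4 (chr2:79255426-79333123, plus strand), best known as a subunit of the leukocyte integrin VLA-4, was at 3.65, 1.15 and 2.14 CPM in nTg and 2.04, 4.34, 3.10 and 1.69 in Clec7a-KO. With the transgene it was at 19.2, 25.9 and 22.003 CPM in SOD1G93A and 22.1, 23.7, 16.01 and 13.4 in SOD1G93A/Clec7a-KO. The lowest of the 7 libraries with the transgene was above the highest of the 7 without. Its log2 fold change without Clec7a was 2.73 (SE 0.33, edgeR adjusted p = 1.8e-05).

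Itga9 (chr9:118606690-118901003, plus strand) encodes the alpha 9 chain, also a receptor for tenascin C. Its level was 33.8, 30.8 and 23.0 CPM in nTg and 32.8, 28.4, 29.7 and 28.7 in Clec7a-KO, and 12.4, 6.91 and 7.27 in SOD1G93A and 9.74, 7.88, 6.50 and 9.19 in SOD1G93A/Clec7a-KO. Every library with the transgene was below every library without it. Itga9 fell by 1.85 on the log2 scale (SE 0.20, edgeR adjusted p = 5.8e-06), a level of 0.278 times that in Clec7a-KO. The share of thinned microglia with an Itga9 UMI was 6.83% in nTg and 6.67% in Clec7a-KO, and 1.89% and 1.53% with the transgene.

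The subunits of the RGD-binding pairs differed less. Itgb5 (chr16:33829665-33949338, plus strand), the beta 5 chain, was at 819, 836 and 926 CPM in nTg, 940.2, 848, 790.1 and 1099.6 in Clec7a-KO, 1300.3, 1232 and 1161 in SOD1G93A and 1278, 1368, 1493 and 1551 in SOD1G93A/Clec7a-KO. The lowest transgenic library exceeded the highest of the others by little. Its log2 fold change was 0.63 (SE 0.14, edgeR adjusted p = 0.0024), and this call was lost when library totals were used without TMM factors (0.12, edgeR adjusted p = 0.42). That scaling put the median of all genes in this contrast at -0.50 in place of 0.01.

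Itgav (chr2:83724397-83806916, plus strand), the common alpha chain of these pairs, was at 84.3, 77.6 and 73.8 CPM in nTg, 77.6, 94.6, 83.2 and 77.8 in Clec7a-KO, 76.6, 136 and 106 in SOD1G93A and 79.1, 64.5, 55.2 and 63.2 in SOD1G93A/Clec7a-KO. The first SOD1G93A library lay inside the range of the groups without the transgene and the other 2 above it. Its log2 fold change without Clec7a was -0.35 (SE 0.16, edgeR adjusted p = 0.093) and was not called, while the described difference with Clec7a was 0.44. The call was sensitive: Itgav was called lower under 5 of 25 alternatives, among them DESeq2 (adjusted p = 0.0488), totals without TMM factors (-0.86, edgeR adjusted p = 0.0010), the fit to only the 2 groups (edgeR adjusted p = 0.041) and the fits without SOD1G93A replicate 1 (edgeR adjusted p = 0.025) or SOD1G93A/Clec7a-KO replicate 1 (edgeR adjusted p = 0.042).

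Itgb1 (chr8:128685654-128733200, plus strand), the beta 1 chain shared by many integrins, ranged from 124 to 169 CPM in nTg, 133 to 148 in Clec7a-KO, 173 to 176 in SOD1G93A and 139 to 182 in SOD1G93A/Clec7a-KO. Its log2 fold change of 0.21 (95% interval -0.06 to 0.48, edgeR adjusted p = 0.19) was not called. Itgb3 (chr11:104608000-104670476, plus strand), the beta 3 chain best known from platelets and osteoclasts, ranged from 15.2 to 18.9, 12.4 to 17.7, 17.1 to 18.1 and 10.4 to 18.9 CPM in the same order. Its log2 fold change of -0.02 (95% interval -0.39 to 0.35, edgeR adjusted p = 0.94) was not called either, but with totals in place of TMM it was -0.54 (edgeR adjusted p = 0.032). Itgb1 changed sign under that scaling and stayed uncalled.

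In the microglia class, some genes of the marker lists of other myeloid cells were also higher with the transgene. These were Ms4a7, Pf4 and Fn1, while the other border-associated macrophage and monocyte markers reached at most 1.62 CPM (Vcan). The summed level of 8 border-associated macrophage markers was 1.25 to 3.15 CPM in the 7 libraries without the transgene and 38.5 to 90.9 in the 7 with it, and that of 7 monocyte markers was 5.61 to 12.9 and 105 to 226 CPM (of class totals, without TMM scaling). Levels of single markers are after TMM scaling, so a single marker can exceed these sums. Of the 8 border-associated macrophage markers, Ms4a7 ran from 0 to 0.737 CPM in the 7 libraries without the transgene and from 34.9 to 100.3 in the 7 with it, and Pf4 from 0.0737 to 0.894 and from 5.89 to 18.4. Mrc1 ran from 0.230 to 0.756 CPM without and from 0.289 to 0.885 with it, and Ccr2 from 0.442 to 1.55 and from 0.492 to 0.774. Mrc1, Cd163 and Lyve1 reached at most 0.885, 0.0578 and 0.103 CPM in any library, and Lyve1 was at 0 in 12 of the 14. F13a1 ran from 0 to 0.206 CPM without and from 0.0757 to 0.287 with the transgene. Of the monocyte markers, Fn1 ran from 2.11 to 7.45 CPM without and from 132 to 254 with the transgene, whereas Ly6c2 reached at most 0.147 and Chil3 0.172 CPM in any library. The part of these genes in the other results was not tested.

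Loss of Clec7a was compared next, which was the study's own question. None of the 9 genes passed the test between SOD1G93A/Clec7a-KO and SOD1G93A microglia, where 0.0179% of the genes tested were called, and none between Clec7a-KO and nTg, where 0.0298% were called (edgeR adjusted p under 0.05). DESeq2 called 0 in both, and at an unadjusted edgeR p under 0.05 there was 1 and 0 of the 9, beside 11.02% and 2.88% of all genes tested. That 1 was Itgav, with a log2 difference of -0.70 (95% interval -1.07 to -0.33, edgeR adjusted p = 0.45). For Spp1 the difference was 0.15 with the transgene (95% interval -1.07 to 1.37, edgeR adjusted p = 0.92) and 0.71 without it (-0.54 to 1.95, edgeR adjusted p = 1). The value without the transgene was -0.11 without Clec7a-KO replicate 4 and 0.25 without nTg replicate 2, and that with the transgene was -0.05 without SOD1G93A/Clec7a-KO replicate 3. With the transgene, the interval spans a fall and a rise of more than 2-fold. For Itgax the difference was 0.18 (-0.62 to 0.99) with and 0.01 (-0.83 to 0.86) without the transgene, and for Cd44 -0.54 (-1.36 to 0.29) and -0.37 (-1.25 to 0.51). Itgb5, Itgb1 and Itga9 had narrower intervals, from -0.12 to 0.53, -0.38 to 0.20 and -0.53 to 0.35 with the transgene.

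**Figure D2:**
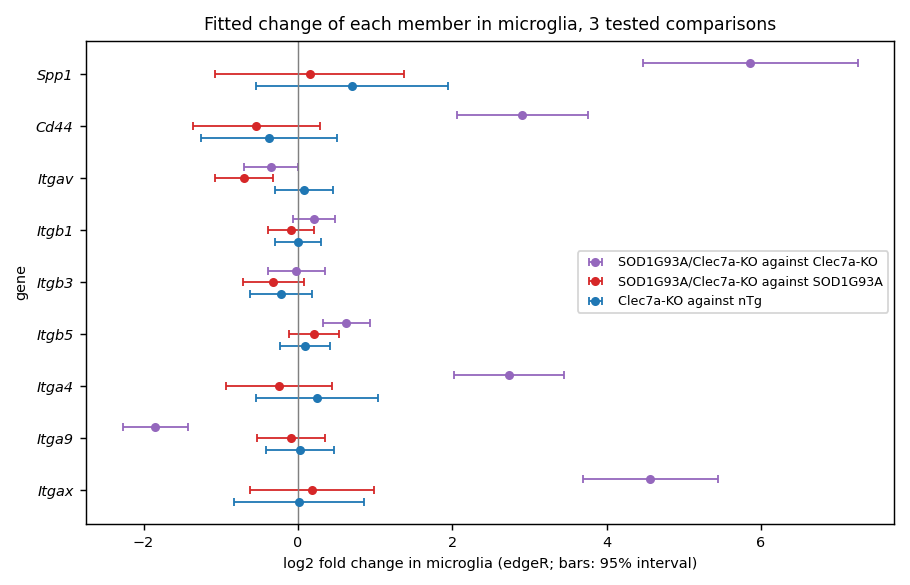
Fitted log2 fold change of each gene in microglia (edgeR, points) with its 95% interval (bars) in the 3 tested comparisons. For SOD1G93A/Clec7a-KO against Clec7a-KO, Spp1 lies at 5.86, Itgax at 4.57 and Itga9 at -1.85, while the intervals of both comparisons of Clec7a loss include 0 for every gene other than Itgav with the transgene.

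Receptor levels also differed between microglia with much and little Spp1 of their own. Microglia of each transgenic library were put in 4 groups by their Spp1 UMIs per 10000 UMIs of the cell, which were 0, above 0 to 10, above 10 to 50 and above 50. The highest group was 17.6% to 28.0% of a library's microglia and held 75.9% to 89.2% of their Spp1. From the lowest group to the highest, the median Itgax level over the SOD1G93A libraries was 49.6, 109, 223 and 336 CPM, and that of Cd44 was 44.7, 59.9, 71.2 and 89.1 CPM. Both were higher at each step in all 7 transgenic libraries. Itga4 went from 8.26 to 14.4, 20.9 and 30.2 CPM in SOD1G93A and was higher at each step in 6 of 7 libraries.

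Itga9 ran the other way, at 15.5, 9.01, 4.67 and 2.72 CPM in SOD1G93A and 14.1, 9.08, 4.74 and 3.07 CPM in SOD1G93A/Clec7a-KO, and was lower at each step in all 7 libraries. Itgb5 was lower in the highest group than in the lowest in 7 of 7 libraries, whereas Itgav was higher in 3, Itgb1 in 4 and Itgb3 in 1 of 7. Itgb3 was lower at each step in 5 of 7. The median depth of the cells also differed between the groups, from 7831 to 23977 UMIs in SOD1G93A and from 7461 to 15040 in SOD1G93A/Clec7a-KO, and its part in these values was not tested. Cells of 1 library are not replicates, so no test was made. The share of all genes that rise or fall at each step was not counted, so the counts of libraries only describe these genes.

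**Figure D3:**
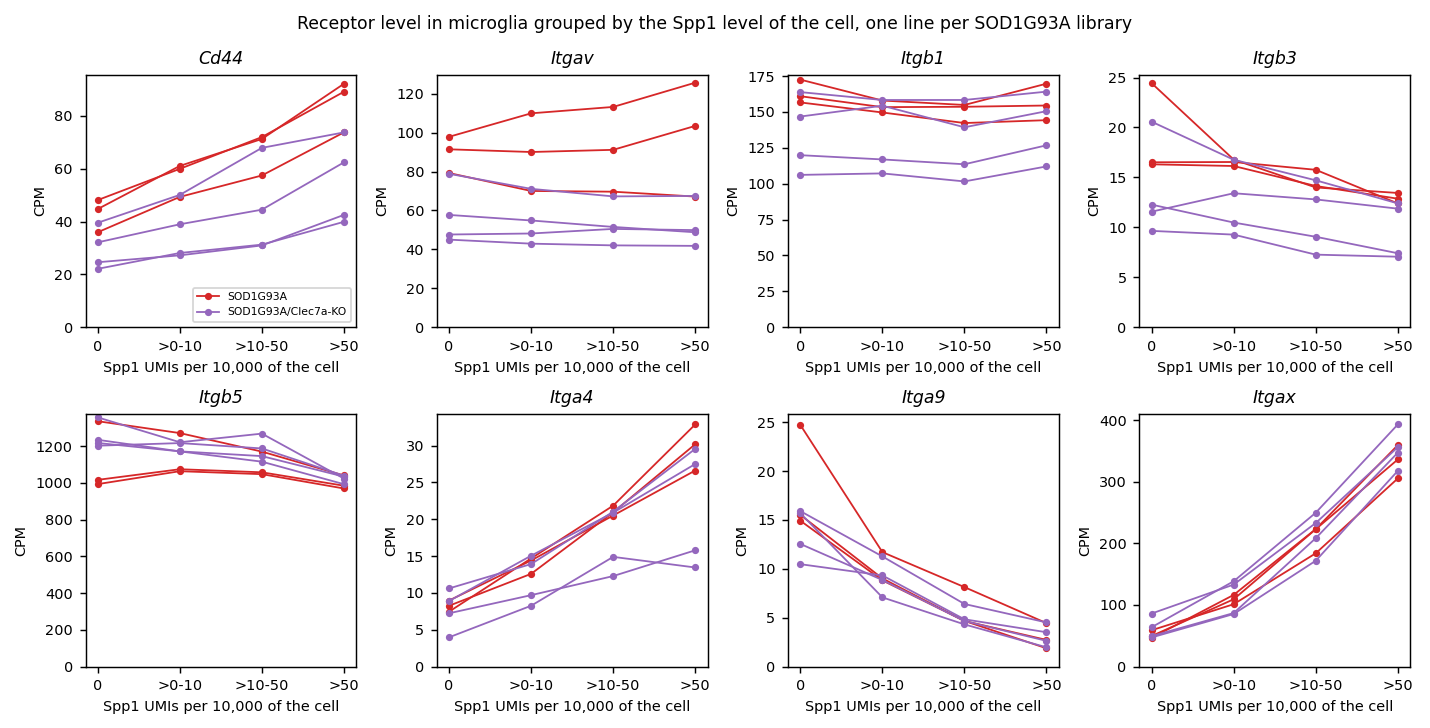
Level of each receptor gene in CPM (linear axes from 0) in microglia grouped by the Spp1 UMIs per 10000 UMIs of the cell, with 1 line for each of the 7 libraries with the transgene. Itgax and Cd44 are higher and Itga9 lower at each step in all 7 libraries. The share of all genes ordered in this way was not counted.

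The class with the highest level differed between the receptors, and for most of the genes it was not microglia. Medians are over the libraries of all 4 groups with at least 20 cells of a class. Itgb5 was highest in microglia (1130.2 CPM), before border-associated macrophages (478 CPM) and mural cells (326 CPM), and Itgax too was highest in microglia (96.2 CPM), where its range of 4.24 to 325 CPM overlapped with that of T and NK cells (0 to 195 CPM, median 77.3). In Clec7a-KO alone the Itgax median was 12.7 CPM in T and NK cells and 10.8 in microglia, and in SOD1G93A it was 31.3 and 236 CPM. The Clec7a-KO value in T and NK cells is at the floor of 3 UMIs. It rests on 3, 0 and 5 UMIs in replicates 1, 2 and 4. In SOD1G93A/Clec7a-KO the ranges were 110 to 195 CPM in T and NK cells and 193 to 325 in microglia. In T and NK cells of transgenic libraries 5 microglial genes (C1qa, C1qb, C1qc, Ctss and Csf1r together) stood at 7.88% to 63.1% of their microglial level, and their part in the levels of this class was not tested. Itga9 was highest in oligodendrocyte precursors at 393 CPM, and Itgav in the same cells at 369 CPM, before astrocytes at 177 CPM. Among named classes, mural cells had the highest Itgb1 level (808 CPM), before endothelial cells (361 CPM). T and NK cells, of which no nTg library had 20, led for Itga4 (155 CPM) and Itgb3 (21.3 CPM), with mural cells next for Itga4 (141 CPM) and microglia next for Itgb3 (15.4 CPM). The order for Cd44 depended on the group. In nTg neurons had the highest median among named classes (45.6 CPM), before astrocytes (30.6 CPM). In Clec7a-KO it was 122 CPM in T and NK cells, 38.9 in border-associated macrophages, 31.1 in neurons and 21.5 in astrocytes. With the transgene astrocytes were highest, at 217 CPM beside 124 in T and NK cells of SOD1G93A and at 182 beside 94.5 CPM in SOD1G93A/Clec7a-KO. The Itga4 levels of T and NK cells (96.5 to 326 CPM) and mural cells (78.9 to 238 CPM) overlapped, as did the Itgb3 levels of T and NK cells (8.44 to 95.2 CPM) and microglia (10.4 to 18.9 CPM). The Itga9 range of oligodendrocyte precursors, 165 to 464 CPM, did not overlap with that of microglia, 6.50 to 33.8 CPM.

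**Figure D4:**
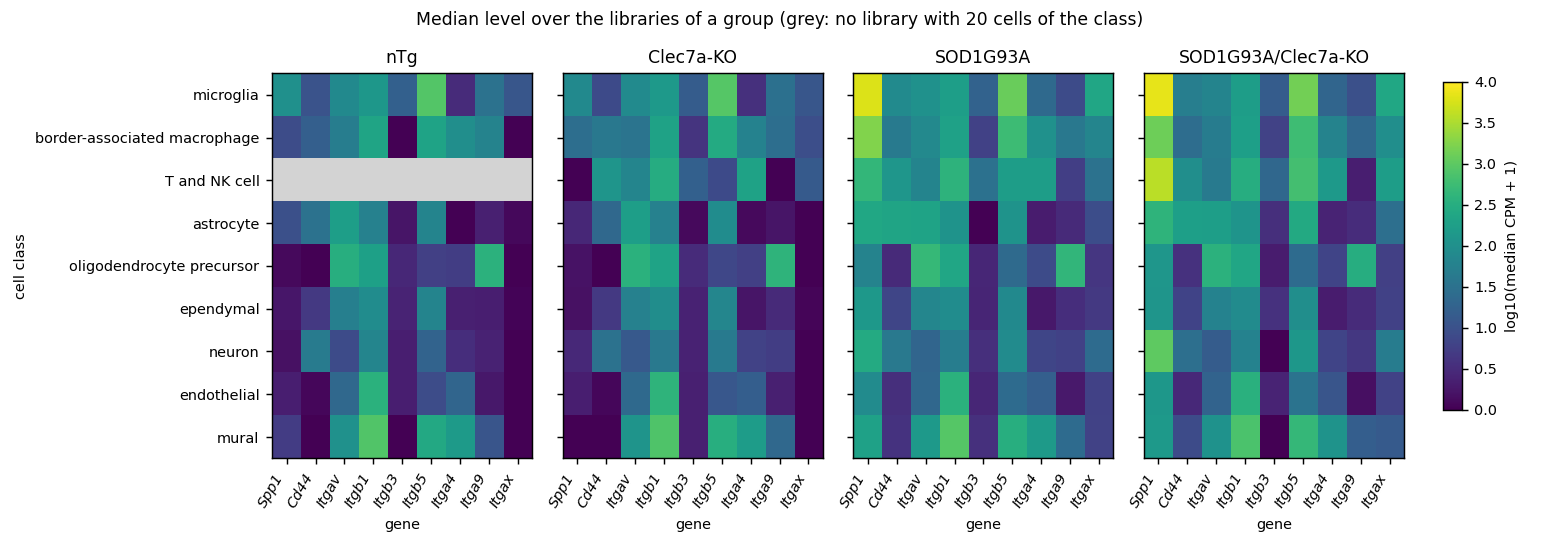
Median level of the 9 genes (columns) in 9 cell classes (rows) in each of the 4 groups, coloured by log10(CPM + 1), with grey where no library had 20 cells of the class. In both groups with the transgene the median Spp1 level is highest in microglia (6139.7 and 7227 CPM), while Itga9 and Itgav in oligodendrocyte precursors and Itgb1 in mural cells are high in all 4 groups.

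In the 5 other classes with at least 20 cells in every library, 34 pairs of a gene and a class could be tested, and 12 were called higher and 0 lower in SOD1G93A/Clec7a-KO against Clec7a-KO, beside 8.74% of all genes tested in these classes. Itgax in endothelial cells, ependymal cells and astrocytes, and Spp1 in the 4 classes other than astrocytes, passed the filter on low counts only through the libraries with the transgene. They could be called only higher, so their calls and the split of 12 to 0 support no direction. SOD1G93A against nTg, the contrast by which the genes were proposed from microglia, gave 12 higher and 0 lower, beside 7.57%. Its calls and p-values in these classes, here and below, are therefore no separate support. Spp1 was among the calls of all 5 classes in both contrasts. Without Clec7a, the genes called were Spp1, Itgb5 and Itgax in endothelial cells (0.878% of all genes tested there were called), Spp1 and Itgax in ependymal cells (1.39%), Spp1, Cd44, Itgb1, Itgb5 and Itgax in astrocytes (34.2%), and Spp1 alone in oligodendrocyte precursors (4.68%) and mural cells (1.07%). With Clec7a they were Spp1 and Itgax in endothelial cells (0.687%) and ependymal cells (1.07%), the 5 named above in astrocytes (32.6%), Spp1 and Itgb5 in oligodendrocyte precursors (1.87%) and Spp1 in mural cells (0.0927%). In endothelial cells Spp1 was at 1.89, 1.16 and 0.467 CPM in nTg and 1.18, 1.15, 0.936 and 1.28 in Clec7a-KO, and at 66.4, 117 and 84.7 CPM in SOD1G93A and 143, 119.7, 142 and 83.5 in SOD1G93A/Clec7a-KO. The groups with and without the transgene did not overlap, and no test is given for the reason above. In oligodendrocyte precursors Spp1 had 4, 0, 0 and 3 UMIs in the 4 Clec7a-KO libraries, and in mural cells all 6 UMIs came from replicate 1, so no fold is given in either. With Xist as a covariate, the calls with Clec7a were lost for Spp1 in mural cells (edgeR adjusted p = 0.36), Itgax in ependymal cells (edgeR adjusted p = 0.070), Itgb5 in oligodendrocyte precursors (1.77, edgeR adjusted p = 0.36), and Itgb5 (0.90, edgeR adjusted p = 0.12) and Itgb1 in astrocytes.

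RNA of microglial genes also stood higher in the same classes in cords with the transgene. C1qa, C1qb, C1qc, Ctss and Csf1r together stood at 0.240% to 3.87% of their microglial level in the 5 classes in Clec7a-KO and at 1.22% to 25.9% in SOD1G93A/Clec7a-KO. In the 35 pairs of a class and a transgenic library, the ratio of Spp1 to these 5 genes was a median of 0.579 times the microglial ratio of the same library, and it was at or below 1 in 31 of 35. Spp1 in oligodendrocyte precursors of SOD1G93A/Clec7a-KO replicate 2 was the highest, at 3.15 times. The other 3 pairs above 1 were a mural sample of SOD1G93A at 1.27 times, and an astrocyte sample of SOD1G93A and an oligodendrocyte precursor sample of SOD1G93A/Clec7a-KO, both at 1.01 times. Whether the Spp1 counts of these classes are their own RNA was not tested. Without the transgene, where microglial Spp1 was low, the same ratio was 4.35 to 47.5 times the microglial one in nTg astrocytes (18 to 36 Spp1 UMIs a library) and 1.15 to 3.51 times in Clec7a-KO astrocytes (3 to 11 UMIs). In nTg it was 1.26 to 15.9 times in endothelial cells, 0.396 to 12.8 in ependymal cells and 0 to 18.1 in mural cells. In Clec7a-KO it was 0.637 to 3.92, 0.348 to 2.01 and 0 to 4.70 times in the same order. In oligodendrocyte precursors it was 0 to 3.68 times in nTg and 0 to 0.883 in Clec7a-KO.

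Itgax in astrocytes and endothelial cells of SOD1G93A stood near the level of the 5 genes. In astrocytes it stood at 2.25% to 11.8% of its microglial level, against 3.71% to 11.2% for the 5 genes, and in endothelial cells at 1.91% to 3.20% against 1.94% to 3.42%. In mural cells it was more spread, at 0% to 11.3% against 2.33% to 5.26% in SOD1G93A and 0% to 16.6% against 2.70% to 16.4% in SOD1G93A/Clec7a-KO. Itgax had 1 UMI in the 4 Clec7a-KO libraries together in astrocytes and 1 in endothelial cells, against 146 and 63 in SOD1G93A/Clec7a-KO. It was called higher in astrocytes, endothelial cells and ependymal cells in both contrasts. There it passed the filter on low counts only through the libraries with the transgene, so these calls support no direction. No fold is given against so few UMIs. Without the transgene Itgax had at most 2 UMIs a library in these 3 classes.

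**Figure D5:**
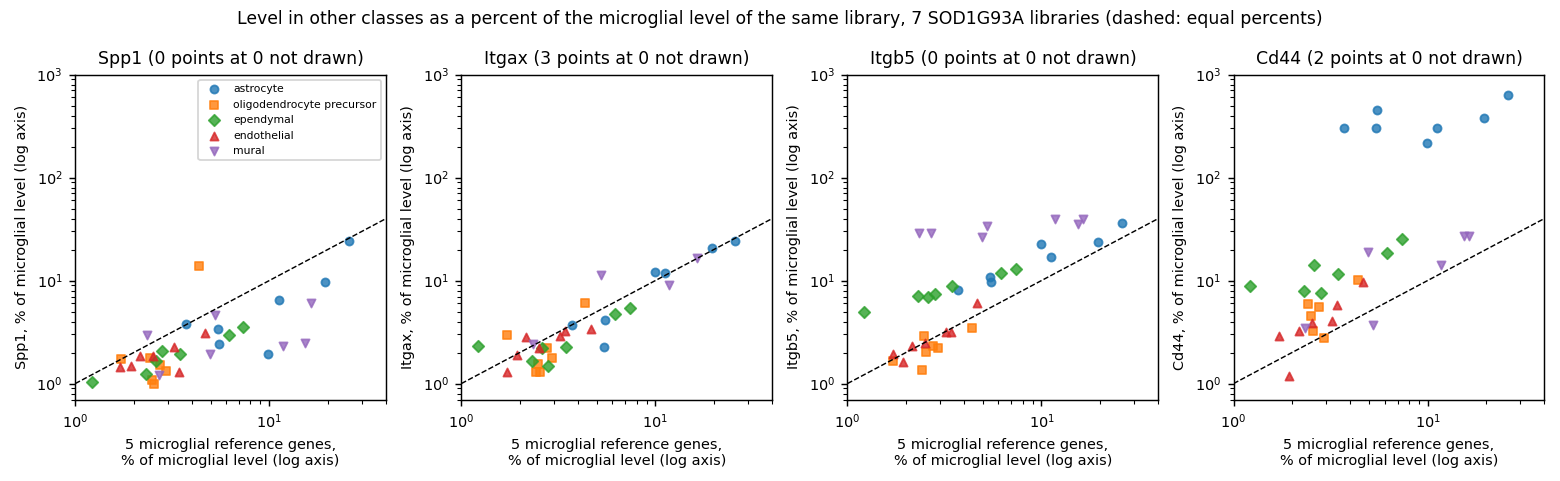
Level of Spp1, Itgax, Itgb5 and Cd44 in 5 other classes of the 7 libraries with the transgene, as a percent of the microglial level of the same library (CPM without TMM scaling), against the same percent for the 5 microglial reference genes (both axes log; the dashed line marks equal percents; points at 0 are left out as stated above each panel). Of the 35 Spp1 points 31 lie on or under the line, and those above it include an oligodendrocyte precursor sample at 3.15 times and a mural sample at 1.27 times the microglial ratio, Itgax points lie on both sides of it, and Cd44 in astrocytes lies between 214% and 637% and Itgb5 in mural cells between 26.4% and 40.0%.

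Cd44, in contrast, was higher in astrocytes than in microglia in all 14 libraries, and it rose in astrocytes with the transgene. Its level was 33.8, 13.1 and 30.6 CPM in nTg, 36.4, 22.7, 20.3 and 17.2 in Clec7a-KO, 168, 227 and 217 in SOD1G93A and 228, 214, 151 and 92.4 in SOD1G93A/Clec7a-KO. The groups with and without the transgene did not overlap. The log2 fold change was 2.85 without Clec7a (SE 0.29, edgeR adjusted p = 1.3e-06) and 2.97 with it (SE 0.32, edgeR adjusted p = 3.2e-06), in a class where 34.2% and 32.6% of the genes tested were called. The contrast with Clec7a uses the libraries by which the genes were proposed from microglia, so its p is no separate support. Without TMM scaling, the astrocyte level was 214% to 637% of the microglial level in transgenic libraries and 189% to 766% in the others, while the 5 microglial genes were at 3.71% to 25.9% in astrocytes of transgenic libraries.

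Astrocytes fell into a cluster with Atp1b2 and Slc7a10 among its leading genes and another led by S100a6, Aqp4, Fxyd1, Gfap and Clu, genes that include known marks of reactive astrocytes. The second cluster was 7.72% to 13.9% of astrocytes in the libraries without the transgene and 42.7% to 62.6% with it. Within the second cluster Cd44 was at 180 to 287 CPM in nTg, 219 to 258 in Clec7a-KO, 298 to 313 in SOD1G93A and 249.9 to 351 in the 3 SOD1G93A/Clec7a-KO libraries with at least 20 such cells. In the first cluster it was 4.57 to 9.06, 1.27 to 9.49, 40.3 to 157 and 52.7 to 99.8 CPM. Both the share of the cluster rich in Cd44 and the level inside the other cluster were thus higher with the transgene, and how much each adds was not tested.

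Astrocytes also had higher Itgb1 and Itgb5. Itgb1 was at 71.4, 52.6 and 55.8 CPM in nTg, 66.2, 63.9, 47.6 and 49.7 in Clec7a-KO, 80.0, 112 and 123 in SOD1G93A and 125, 157, 107 and 59.4 in SOD1G93A/Clec7a-KO. The last of these values rests on 9 UMIs and lies inside the range of the groups without the transgene. Its log2 fold change was 1.08 without Clec7a (SE 0.21, edgeR adjusted p = 6.2e-04) and 0.82 with it (SE 0.23, edgeR adjusted p = 0.0098). The call with Clec7a was lost without SOD1G93A replicate 3 (0.70, edgeR adjusted p = 0.058) and with Xist as a covariate (0.66, edgeR adjusted p = 0.12).

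Itgb5 in astrocytes differed on the log2 scale by 1.65 without Clec7a (SE 0.29, edgeR adjusted p = 2.6e-04) and 0.98 with it (SE 0.33, edgeR adjusted p = 0.027), the latter lost in 5 of 25 alternatives, among them the fits without SOD1G93A replicate 1 (0.57, edgeR adjusted p = 0.19), nTg replicate 1 (0.92, edgeR adjusted p = 0.077) or nTg replicate 3 (0.94, edgeR adjusted p = 0.084). Its level there was 8.07% to 35.9% of the microglial level, against 3.71% to 25.9% for the 5 microglial genes, and the part of microglial RNA in it was not tested. In endothelial cells Itgb5 was called only without Clec7a (1.59, SE 0.35, edgeR adjusted p = 0.0458) and that call was lost in 12 of 25 alternatives, among them the fits without SOD1G93A replicate 2, SOD1G93A/Clec7a-KO replicates 1, 2 or 3, nTg replicates 2 or 3, or Clec7a-KO replicates 2, 3 or 4 (1.20 to 1.71, edgeR adjusted p up to 0.18). In oligodendrocyte precursors it was called only with Clec7a (2.47, SE 0.50, edgeR adjusted p = 0.012) and lost in 5 of 25, among them the fits without SOD1G93A replicate 3 (2.34, edgeR adjusted p = 0.052), nTg replicate 1 (2.51, edgeR adjusted p = 0.065) or nTg replicate 3 (2.21, edgeR adjusted p = 0.10). In endothelial cells the 5 microglial genes stood at 1.71% to 4.65% of their microglial level in SOD1G93A/Clec7a-KO and 0.353% to 1.24% in Clec7a-KO. In oligodendrocyte precursors they stood at 2.49% to 2.93% in SOD1G93A and 0.219% to 0.582% in nTg. The part of microglial RNA in Itgb5 of these classes was not tested. A difference between the contrasts with and without Clec7a was not tested.

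The receptors highest in oligodendrocyte precursors and mural cells were not called in either transgene contrast. Itga9 in oligodendrocyte precursors ranged from 309 to 443 CPM in nTg, 268 to 464 in Clec7a-KO, 339 to 437 in SOD1G93A and 165 to 459.5 in SOD1G93A/Clec7a-KO, and was not called. Itgav in the same cells was at 358, 324 and 302 CPM in nTg and 438, 536 and 480.4 in SOD1G93A, groups that did not overlap (log2 difference 0.56, edgeR adjusted p = 0.35). Without Clec7a its log2 difference was 0.08 (edgeR adjusted p = 0.89). Itgb1 in mural cells ranged from 735 to 1039, 709.9 to 946, 807 to 992 and 641 to 965 CPM in nTg, Clec7a-KO, SOD1G93A and SOD1G93A/Clec7a-KO, also without a call. With Clec7a loss, 0 of 34 pairs in these classes passed in either contrast (edgeR, beside 0.0129% with the transgene and 0.00967% without it), and DESeq2 called 0. By class, the share of all genes called with the transgene was 0.00764% in endothelial cells, 0.0262% in ependymal cells, 0.0156% in astrocytes, 0.00755% in oligodendrocyte precursors and 0 in mural cells. Without the transgene it was 0.0262% in ependymal cells, 0.0151% in oligodendrocyte precursors and 0 in the other 3 classes. At an unadjusted p under 0.05 there were 5 of 34 with the transgene beside 8.10% of all genes tested (Itgb5 and Itgax in astrocytes, Spp1 in oligodendrocyte precursors, Itgb5 and Itga4 in mural cells) and 1 without it, beside 2.35% (Itgb5 in oligodendrocyte precursors).

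Genes of enzymes that cut or modify osteopontin, and of other ligands and partners, were counted in microglia from lists. In SOD1G93A/Clec7a-KO against Clec7a-KO, 25.6% of all genes tested were called higher and 20.6% lower. Here 4 of the 6 tested enzyme genes were higher and 0 lower, with a median log2 fold change of 3.40, beside 0.01 over all genes. They were Acp5 (5.41), a phosphatase that removes phosphate from osteopontin, Mmp12 (5.36), a macrophage elastase, Fam20c (4.81), the kinase of secreted phosphoproteins, and Plau (2.00), the urokinase. Of 14 other ligands of these receptors, 5 were higher, led by Fn1 (fibronectin, 5.29), Postn (periostin, 3.45) and Npnt (nephronectin, 1.01), and 3 were lower, Edil3 (-3.23), Ccn2 (-1.65) and Vtn (vitronectin, -0.95), with a median of 0.67.

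Of 13 other integrin subunits tested, 3 were higher and 3 lower, beside the 46.2% of all genes called in either direction. Itgal (3.81), Itga5 (1.66), the alpha chain of the fibronectin receptor, and Itgb2 (1.01) were higher, and Itga1 (-1.37), Itgae (-1.28) and Itgam (-0.48) lower, with a median of -0.18. Integrin activation and adhesion genes were divided too, with 7 higher and 6 lower of 25 and a median of -0.06. Among them the kinase Fyn (1.05), Itgb1bp1 (0.95) and Parvb (0.91) rose, and Fermt2 (-1.21), Parva (-1.20) and Tln2 (-0.79) fell. Of 8 Cd44 partners and sheddases 4 were higher, led by Mmp14 (1.49), Ezr (1.07) and Adam17 (0.47), and 2 lower, Ank3 (-1.98) and Adam10 (-0.53), with a median of 0.22. None of 4 related bone matrix genes passed the filter on low counts, and 0 genes of any list were called in microglia with Clec7a loss. How many listed genes passed that filter only through the libraries with the transgene, and so could be called only higher, was not counted.

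Across the 14 libraries, after the mean of each group was subtracted from log2 CPM, Spp1 in microglia was most alike to 4833439L19Rik (r = 0.91), Psat1 (0.90), Mmp12 (0.90), Rftn1 (0.88) and Ank (0.88) among 7776 genes with a mean of at least 10 CPM. Itgax was most alike to Gpnmb (0.92), Cd22 (0.92), Axl (0.90), 4833439L19Rik (0.85) and Fabp3 (0.85). Spp1 and Itgax had r = 0.84 with each other, Spp1 and Cd44 0.64, Spp1 and Itgb5 0.58, and Spp1 and Itga9 -0.25. These are descriptions over libraries that share depth and class makeup, and they carry no p.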

How the data were processed

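The submitters deposited gene by cell matrices of whole-number UMI counts for 14 libraries, made with Cell Ranger 3.0.2, per the file headers. Build mm10, Seurat and DESeq2 are named in the submitters' processing notes with no role. Of 108892 barcodes, 89756 were kept, with at least 500 genes and 1000 UMIs and at most 15% mitochondrial UMIs, after removal of the highest Scrublet scores at 0.8% per 1000 barcodes (7046 cells). Cells were clustered with scanpy 1.11.5 (2000 variable genes, 30 components, Leiden resolution 1) and classes named from marker lists. Unnamed clusters under 1000 cells with a second class above 5 on the log2 scale were divided at resolution 0.3, a rule chosen after seeing the data. UMIs were summed per library and class where a library had at least 20 cells, and tested with edgeR 4.0.16 (TMM, filterByExpr, quasi-likelihood, all 14 libraries in each fit, two-sided, Benjamini-Hochberg adjustment over all genes). The SE of a log2 fold change was derived from that test, as its absolute size divided by the square root of the F statistic. The 95% intervals were built from this SE. DESeq2 1.42.0, other scalings, filters, covariates, clusterings and leaving out each library were alternatives.

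The 9 genes, the gene lists and the tests were chosen with earlier results of these data known. Named genes are these 9, up to 3 called genes of each list in each direction by size (with Plau, named after its value was seen), and the 5 most alike to Spp1 and Itgax. The p-values measure the spread between libraries, which may be technical. On simulated counts of 16581 genes for SOD1G93A/Clec7a-KO against Clec7a-KO in microglia, the fit called 53.5% of 99 genes changed by 1 on the log2 scale and 91% of 100 changed by 2, in the right direction. Of its 153 calls, 9 were unchanged genes. Few genes were changed there, whereas 46.2% of all genes were called in the data, so these rates need not hold for the data. Depth per library is given as total UMIs in the report, and 3 UMIs was taken as the floor of a level. The microglial reference level is over 5 of the 6 genes first chosen for it, since the other is not reported here, a change made after seeing the data. Columns of other samples numbered 0.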

Additional observations from a re-analysis of the deposited data

Results flagged for a closer look

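Spp1 in microglia of Clec7a-KO replicate 4 was 286 CPM, and the next of the 4 libraries was at 91.1. The same library had 9.04 CPM of Spp1 in astrocytes, where the next was at 1.96, and 94.6% of its Spp1 UMIs in microglia, where the next was at 86.3%. Spp1 in oligodendrocyte precursors of SOD1G93A/Clec7a-KO replicate 2 was 536 CPM, and the next was at 139.7. In Clec7a-KO replicate 1, Spp1 in mural cells was 9.73 CPM, Itgax in astrocytes 0.178 CPM and Itgax in endothelial cells 0.0980 CPM, each with the other 3 libraries at 0. These were the libraries that stood apart from their group by Dixon's test, 7 of 46 groups of 4 checked, where chance gives about 1 in 20. With the other 3 libraries at 0 the test is always passed, and both Itgax values are 1 UMI, so those 3 cases say little.

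Classes outside the tests also had Spp1 with the transgene. In T and NK cells the lowest of the 7 libraries with the transgene was at 222.8 CPM, and the highest of those without it at 16.9. Without the transgene only Clec7a-KO replicates 1, 2 and 4 had 20 such cells, with 4, 0 and 0 Spp1 UMIs. In neurons the lowest of 6 libraries with the transgene was at 54.9 CPM, and the highest without it at 2.22. Neither difference was tested. The 5 microglial genes stood at 7.88% to 63.1% of their microglial level in these T and NK cells and 7.10% to 17.6% in these neurons. The ratio of Spp1 to them was 0.295 to 8.19 times the microglial one in these T and NK cells and 0.148 to 6.28 times in these neurons. Spp1 in T and NK cells of SOD1G93A/Clec7a-KO replicate 4 was 8137 CPM, against 7276 in its microglia. In border-associated macrophages the groups overlapped, with 296 CPM in the lowest library with the transgene and 311 in the highest without it. The overlap rests on Clec7a-KO replicate 1. The other libraries without the transgene that had 20 such cells stood at 7.52 CPM (nTg replicate 1), 26.7 and 8.22 (Clec7a-KO replicates 3 and 4). Libraries with the transgene reached 2906 CPM.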

How the results depend on the processing

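Of the single-gene results under alternatives, 1275 tested or untested values kept their call or stayed within their spread, 27 lost and 6 gained a call, and 61 values without a test moved. No called value changed sign, while uncalled ones did, such as Itgb1 in microglia without Clec7a (-0.30 to 0.23) and, for Clec7a loss without the transgene, Cd44 in microglia (-0.79 to 0.19). In the 5 other classes, the count of 12 without Clec7a became 21 with no filter on low counts, and the count of 12 with Clec7a became 7 with Xist as a covariate. For Clec7a loss in these classes, the 0 became 4 with no filter and 1 when the running library number entered the fit (with the transgene), and 2 with no filter (without it). With 1 library left out at a time, counts were 6 to 7 in microglia, 11 to 14 and 10 to 14 in the other classes without and with Clec7a, and 0 to 0 for Clec7a loss, other than 0 to 2 in the other classes with the transgene. The cause was not tested. The share of all genes called under each alternative is not given, here or for the replicate block below, so these counts cannot be set against it. In the other classes they also include the Spp1 and Itgax pairs whose calls support no direction.

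The microglial share of Spp1 at Leiden resolution 0.5 was 67.8% in Clec7a-KO, 96.2% in SOD1G93A and 93.8% in SOD1G93A/Clec7a-KO, and without doublet removal it was 90.8% and 91.2% in the last 2. With 1 library left out it ran from 61.8% to 88.1% in nTg, 85.9% to 88.9% in Clec7a-KO, 98.9% to 99.4% in SOD1G93A and 98.2% to 98.9% in SOD1G93A/Clec7a-KO. The share of microglia with a Spp1 UMI moved with the thinning depth by construction: at 4000 UMIs it was 2.38% in nTg, 2.94% in Clec7a-KO, 73.7% in SOD1G93A and 76.9% in SOD1G93A/Clec7a-KO, and at 1000 UMIs 52.8% and 55.0% in the last 2. Mural cells could not be fitted with at least 2000 UMIs per cell, since a library then had under 20.

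Replicate numbers were not used to pair the libraries in the main fit. The deviations of 10 of 19 same-numbered pairs correlated above 0.1 (range -0.31 to 0.54), and 5 of 14 libraries correlated best with their own number. The share above 0.1 was not counted for pairs of different number, so a pairing by number was not tested. With the replicate block the counts were 6 in microglia, 12 and 14 in the other classes without and with Clec7a, and 0 for Clec7a loss. Depth limits Itgax, Cd44 and Spp1 outside microglia, where libraries without the transgene often hold under 3 UMIs.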

Other observations

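The other lists were also counted in astrocytes. In SOD1G93A/Clec7a-KO against Clec7a-KO, where 18.6% of all genes tested were called higher and 15.6% lower, 6 of 10 tested other integrin subunits were called higher and 0 lower (edgeR, median log2 fold change 1.89, beside -0.04 over all genes), 15 of 25 integrin activation and adhesion genes higher and 1 lower (median 0.64), and 8 of 13 other ligands higher and 2 lower (median 2.05). Of 8 Cd44 partners and sheddases 3 were higher and 0 lower. RNA of the 5 microglial genes was at 5.49% to 25.9% of its microglial level in these astrocytes and 0.394% to 2.13% in those of Clec7a-KO, and its part in the counts was not tested. Listed genes that passed the filter on low counts only through the libraries with the transgene could be called only higher. Such genes were not counted, so these splits and medians support no direction.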
